A study of Homo sapiens with 2 samples.

Results

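The JAK kinases JAK1, JAK2 and TYK2, the transcription factors STAT3, STAT5A, STAT5B and STAT6 and the feedback genes SOCS1, SOCS2 and SOCS3 were examined in glioblastoma cells treated with CCA-1.1. These 10 genes were taken by name, and all 10 were found among the 41582 gene symbols of the deposited table, with 111 of its 177816 transcripts. The cells were U87, an established human glioblastoma cell line labelled as wild type, grown in RPMI with fetal bovine serum and kept for 72 h in medium with the curcumin analog CCA-1.1 or with DMSO, the solvent control. There was 1 library per condition, so no difference below has a replicate check, no p-value is given, and "higher" or "lower" describes these 2 libraries only. The dose of CCA-1.1 used for sequencing is not given in the sources used here.

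Cytokine receptors without a kinase of their own carry JAK kinases on their inner side. When a ligand brings the receptor chains together, the JAKs phosphorylate each other and the receptor, STAT proteins dock there, become phosphorylated, pair up and enter the nucleus to switch on their target genes. Among these targets are the SOCS genes, whose proteins bind JAKs or receptors and close the signal down, so the RNA level of a SOCS gene is often read as a trace of recent signalling. In glioblastoma, STAT3 is known as a factor of the mesenchymal state and as a relay of IL-6 family cytokines. The activity of JAK and STAT proteins depends on phosphorylation, which RNA sequencing does not measure.

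Levels are given in TPM, a unit of RNA abundance that corrects for transcript length and library size, summed over the transcripts of a gene. Differences are log2((CCA-1.1 TPM + 1) / (DMSO TPM + 1)). On this scale 1 stands for a 2-fold change, a second and smaller threshold was set at 0.32, and changes of low genes are understated. Genes whose mean of the 2 libraries reached 1 TPM are called expressed genes. TPM does not keep the depth of a library, and no counting error can be given. The U87 label was compared with markers. Of the 6 mesenchymal glioblastoma line markers, VIM was at 3217 and 3106 TPM with DMSO and CCA-1.1, CHI3L1 at 4947 and 4397 TPM, S100A6 at 22119 and 19563 TPM and CD44 at 607.4 and 472.6 TPM, whereas NES, the gene of nestin, was at only 7.53 and 7.62 TPM. Of the 6, 2 were lower by more than 0.32 with CCA-1.1, CD44 among them, against 6.88% of all expressed genes. Of the astrocyte markers, GFAP (0.41 and 0.57 TPM) and AQP4 (0 and 0.02 TPM) were near 0, and ALDH1L1 was at 3.42 and 6.05 TPM. The leukocyte marker CD3E was listed at 0 in both libraries and PTPRC was at 0.09 and 0.07 TPM, while of the endothelial markers VWF (0.12 and 0.19 TPM) and CDH5 (0.40 and 0.33 TPM) were near 0 and PECAM1 was at 3.41 and 2.71 TPM.

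None of the 10 genes passed 2-fold, and SOCS1 alone passed 0.32, being lower in the CCA-1.1 library. Past 2-fold in either direction lay 3.56% of the 15485 expressed genes, and 18.3% lay past 0.32. Lower values in the CCA-1.1 library were found for 8 of the 10 genes, against 43.7% of all expressed genes, and the exceptions were STAT5A and SOCS2. The differences ran from -0.64 for SOCS1 to 0.13 for STAT5A with a median of -0.050, and the median of all 15485 genes was 0.029. All 10 genes had a mean of at least 1 TPM, so none was left out. Taken as sums, the JAK kinases were at 161.0 TPM with DMSO and 155.6 TPM with CCA-1.1, the STAT factors at 149.2 and 138.7 TPM, and the SOCS genes at 64.9 and 56.9 TPM. The SOCS sum is made mostly of SOCS3.

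**Figure D1:**
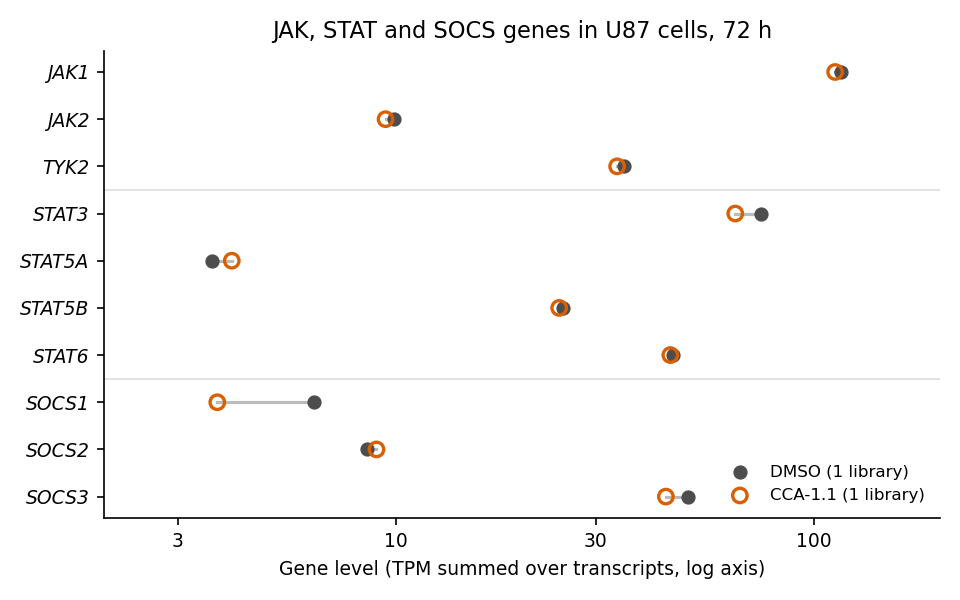
Gene levels in TPM on a log axis for the 10 genes, with 1 filled point for the DMSO library and 1 open point for the CCA-1.1 library; there are no error bars because each condition has 1 library. The points of most genes lie close together, SOCS1 shows the widest gap (6.35 TPM with DMSO, 3.73 TPM with CCA-1.1), and JAK1 is the most abundant gene in both libraries.

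The order of the levels was much the same in both libraries. By mean of the 2 libraries it ran from JAK1 (114.1 TPM) through STAT3 (69.7), SOCS3 (47.1), STAT6 (45.6), TYK2 (34.5), STAT5B (24.8), JAK2 (9.67), SOCS2 (8.75) and SOCS1 (5.04) to STAT5A (3.83 TPM). SOCS3 and STAT6 exchanged places between the libraries, and so did SOCS1 and STAT5A. With 1 library per condition, the spread between samples that would say whether other neighbours differ is not known.

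SOCS1 encodes a protein that blocks the catalytic site of JAKs and is known above all as a brake on interferon signalling. It lies on chromosome 16 of GRCh38.p14 (11254417 to 11256204) and has 1 transcript in the table, NM_003745.2, so its value does not depend on how reads were divided among isoforms. It was at 6.35 TPM with DMSO and 3.73 TPM with CCA-1.1, which gives a log2 difference of -0.64 and a plain ratio of 0.587. A lower difference was found for 2.53% of all expressed genes and for 4.28% of the 6896 genes with a mean of 1 to 10 TPM, the class SOCS1 belongs to. In that class 9.76% of genes were lower by more than 0.32, and among its 4135 protein-coding genes 6.26% were. The reads behind a value of this size are not known, so counting error at low level was not tested as its cause. A long non-coding RNA gene that spans the same stretch, LOC105371082, was at 1.51 TPM and 1.44 TPM. None of the 1785 words of 31 bases in the GENCODE transcripts of SOCS1 occurs in a GENCODE transcript of another gene. The deposited values are for RefSeq transcripts, which were not searched, so sharing of reads with LOC105371082 was not tested.

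The promoter of SOCS1 is shown because SOCS1 had the largest difference of the 10 genes. For SOCS3, the most abundant of the 3 feedback genes, 1 of its promoter windows is shown. Both are RefSeq sequences of GRCh38.p14, written 5′ to 3′ on the strand of the gene from 250 bases before to 50 bases after the transcript start, and the capitals mark a match to GAAANNGAAA, the core of elements bound by interferon regulatory factors, on either strand.
SOCS1 (chr16:11256155-11256454, minus strand): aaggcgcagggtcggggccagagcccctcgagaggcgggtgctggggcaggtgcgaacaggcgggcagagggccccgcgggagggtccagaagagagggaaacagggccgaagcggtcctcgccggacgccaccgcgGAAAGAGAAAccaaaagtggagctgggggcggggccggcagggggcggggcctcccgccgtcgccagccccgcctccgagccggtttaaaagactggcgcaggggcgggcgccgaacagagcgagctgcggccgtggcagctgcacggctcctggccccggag
SOCS3 (chr17:78360876-78361175, minus strand): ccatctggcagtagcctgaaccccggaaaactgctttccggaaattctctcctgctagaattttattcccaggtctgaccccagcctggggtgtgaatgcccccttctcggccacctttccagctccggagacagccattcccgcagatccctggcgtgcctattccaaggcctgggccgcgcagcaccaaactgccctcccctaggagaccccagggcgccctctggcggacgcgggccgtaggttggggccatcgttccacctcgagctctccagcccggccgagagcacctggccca
The match in SOCS1 reads GAAAGAGAAA and begins at position -113 from the start. Such a match occurs in 3.57% of 35116 RefSeq promoter windows, and this motif was looked for after the SOCS1 sequence had been seen. The STAT motif TTCNNNGAA was found in none of the 17 windows available for 9 of the 10 genes, SOCS2 having none, and occurs in 7.66% of all windows. The spacing preferred by STAT6, with 4 bases in place of 3 between TTC and GAA, was found in 1 window of STAT5A, as TTCCTCTGAA at position -229, and occurs in 6.44% of all windows. The other SOCS3 window was searched but is not shown, and sequence outside the windows was not searched. A match of letters is a description and does not show binding. IRF1, a factor that reads such elements, was at 13.2 and 14.1 TPM, with a difference of 0.086.

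SOCS3, which binds gp130 and shuts off IL-6 family signalling, lies on chromosome 17 (78356778 to 78360925). It was at 49.98 TPM with DMSO and 44.2 TPM with CCA-1.1, a difference of -0.17, and 15.97% of expressed genes had a lower one. Its transcripts did not share this direction. NM_003955.5 was at 34.4 TPM with DMSO and 27.5 TPM with CCA-1.1, NM_001378932.1 was at 14.5 and 16.8 TPM, and NM_001378933.1 was at 1.16 TPM with DMSO and at 0 with CCA-1.1. NM_003955.5 held 68.8% of the gene with DMSO and 62.1% with CCA-1.1.

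SOCS2 restrains growth hormone signalling and is a classical target of STAT5. The gene on chromosome 12 (93569969 to 93626236) was at 8.53 TPM with DMSO and 8.97 TPM with CCA-1.1, a difference of 0.065, while its isoforms differed more than the sum. Its most abundant transcript by mean, the model transcript XM_017020148.3, held 30.5% of the gene in DMSO and 18.5% in CCA-1.1. NM_001270468.2 held 13.8% and 27.1%. NM_001270471.2 was at 1.57 TPM with DMSO and at 0 with CCA-1.1. SOCS2-AS1, a long non-coding gene that overlaps SOCS2 over 1430 bases, was at 0.86 and 0.58 TPM.

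STAT3 was the most abundant of the 4 STAT genes and the one with the largest difference among them. It lies on chromosome 17 (42313324 to 42388442) and was at 74.6 TPM with DMSO and 64.8 TPM with CCA-1.1, a difference of -0.20. Of all expressed genes, 13.4% had a lower difference. The table lists 24 STAT3 transcripts, 7 of them averaging 1 TPM or more. The leading transcript NM_139276.3 was at 28.7 TPM with DMSO and 24.9 TPM with CCA-1.1, and its share of the gene was 38.5% and 38.3%. The model transcript XM_017024973.3 was at 6.22 TPM with DMSO and 1.41 TPM with CCA-1.1, a difference of -1.58, whereas another model transcript, XM_047436585.1, was at 6.42 and 10.1 TPM.

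STAT5A and STAT5B are neighbouring genes whose proteins are near copies and act downstream of growth hormone, prolactin and several interleukins. STAT5A (chromosome 17, 42287439 to 42311943) was by mean the least abundant of the 10 genes, with 3.62 TPM with DMSO and 4.04 TPM with CCA-1.1, a difference of 0.13. STAT5B (42199177 to 42288370) was at 25.0 and 24.6 TPM, a difference of -0.026. Together they were at 28.6 TPM in both libraries, and STAT5A held 12.6% of that sum in DMSO and 14.1% in CCA-1.1. Their annotated spans overlap by 932 bases, and 1050 words of 31 bases are shared by their GENCODE transcripts, which is 16% of the words of STAT5A and 8.39% of those of STAT5B. Reads from such stretches match both genes and were divided by estimation, so the split between them is less certain than their sum. The leading transcripts were NM_001288718.2 for STAT5A (2.44 and 2.79 TPM) and NM_012448.4 for STAT5B (20.9 and 19.4 TPM).

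STAT6, the factor of IL-4 and IL-13 signalling, was at 45.9 TPM with DMSO and 45.3 TPM with CCA-1.1, a difference of -0.019. It lies on chromosome 12 (57095408 to 57111362). The leading transcript NM_003153.5 was at 20.7 and 21.5 TPM. NM_001178081.2 stood at 0 with DMSO and at 1.58 TPM with CCA-1.1, a difference of 1.37. The non-coding transcript NR_033659.2 was at 5.40 TPM with DMSO and 2.52 TPM with CCA-1.1, and with protein-coding transcripts alone the sign of the STAT6 difference changed, to 0.076.

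The JAK kinases differed little between the libraries. JAK1, which serves a wide set of cytokine receptors, lies on chromosome 1 (64833229 to 65067746) and was at 115.9 TPM with DMSO and 112.4 TPM with CCA-1.1, a difference of -0.045. Its leading transcript NM_002227.4 held 69.3% of the gene in DMSO and 69.1% in CCA-1.1. JAK2, the kinase of the erythropoietin and growth hormone receptors, lies on chromosome 9 (4984390 to 5129948) and was at 9.90 and 9.43 TPM, a difference of -0.064. Its leading transcript NM_004972.4 held 49.4% and 50.1%.

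TYK2, which serves the receptors of type I interferons and of IL-12 and IL-23, lies on chromosome 19 (10350533 to 10380572). It was at 35.1 TPM with DMSO and 33.8 TPM with CCA-1.1, a difference of -0.055, but held 3 of the 7 transcripts of the 10 genes that passed 2-fold. XM_011528247.2 was at 3.74 TPM with DMSO and 0.17 TPM with CCA-1.1, a difference of -2.02, and NM_001385201.1 was at 4.12 and 1.44 TPM, a difference of -1.07. In the other direction, NM_001385205.1 stood at 0 with DMSO and at 1.09 TPM with CCA-1.1. The leading transcript NM_003331.5 was at 18.8 and 19.3 TPM and held 53.4% and 57.0% of the gene.

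**Figure D2:**
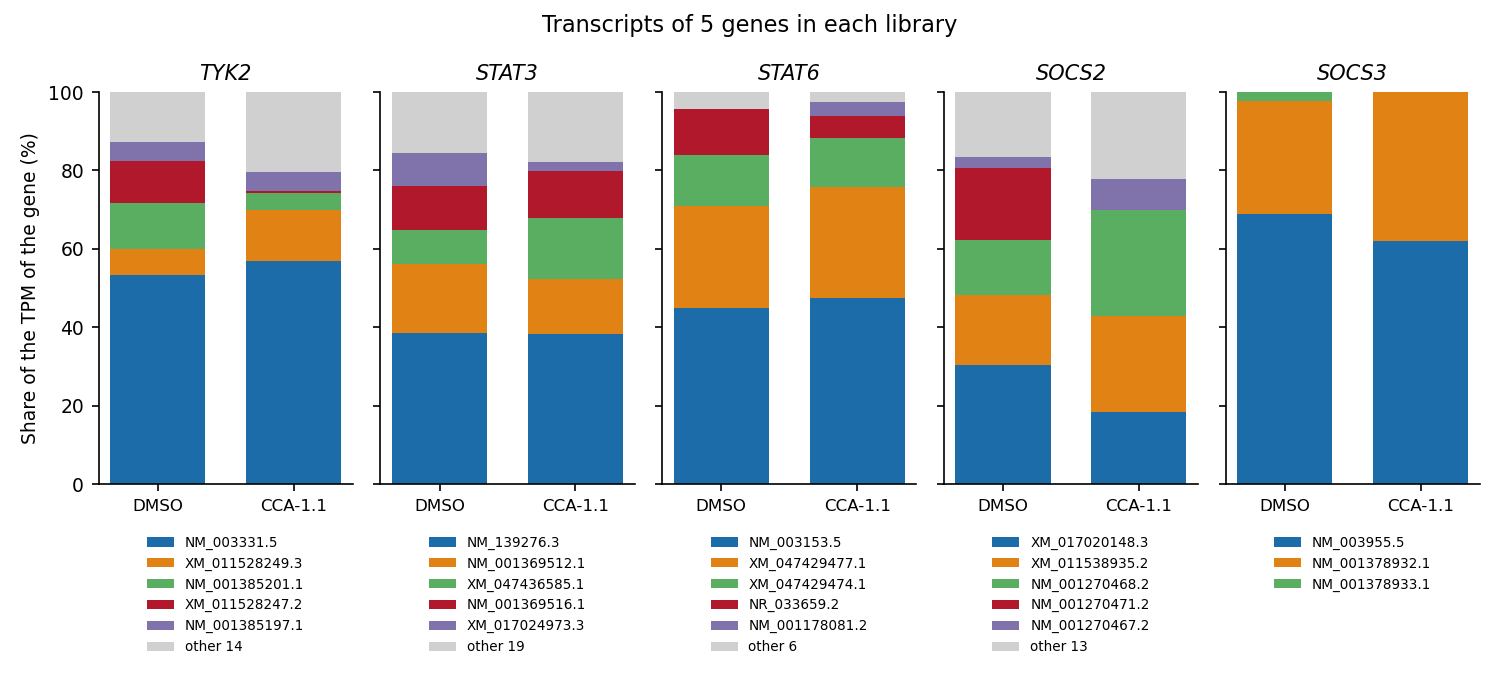
Share of the TPM of each gene (percent, vertical axis) held by its 5 most abundant transcripts in the DMSO and the CCA-1.1 library, with the remaining transcripts in grey; each bar is 1 library. The bars of TYK2 and SOCS2 are divided differently in the 2 libraries, while the largest segment of STAT3 is alike (38.5% and 38.3%).

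Over all 111 transcripts of the 10 genes, 22 were listed at 0 in both libraries and another 22 at 0 in 1 library. Past 2-fold, 2 were higher and 5 were lower in the CCA-1.1 library, against 1.17% and 1.07% of all transcripts of the table. These counts and their lean to lower values rest on the pseudocount of 1 TPM. With 0.1 TPM 14 were higher and 14 lower (8.16% and 7.43% of all transcripts), and with 0.01 TPM 19 and 16 (12.5% and 11.5%). With no pseudocount, over transcripts above 0 in both libraries, 7 were higher and 6 lower (13.5% and 9.8%). Of the 32 with a mean of at least 1 TPM, 3 were lower and 0 higher, against 3.38% and 3.66% of all transcripts with that mean. Of the 9 genes with 2 or more transcripts, 5 held a transcript past 2-fold with the 1 TPM pseudocount (TYK2, STAT3, STAT6, SOCS2 and SOCS3), against 19.6% of such expressed genes, and TYK2 had transcripts in both directions. Of the 5 genes with 5 or more transcripts that reached a mean of 10 TPM, 3 held one, against 36.2% of 3962 genes of that kind. A true switch of isoforms and an uneven division of shared reads by the quantification cannot be told apart from TPM.

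**Figure D3:**
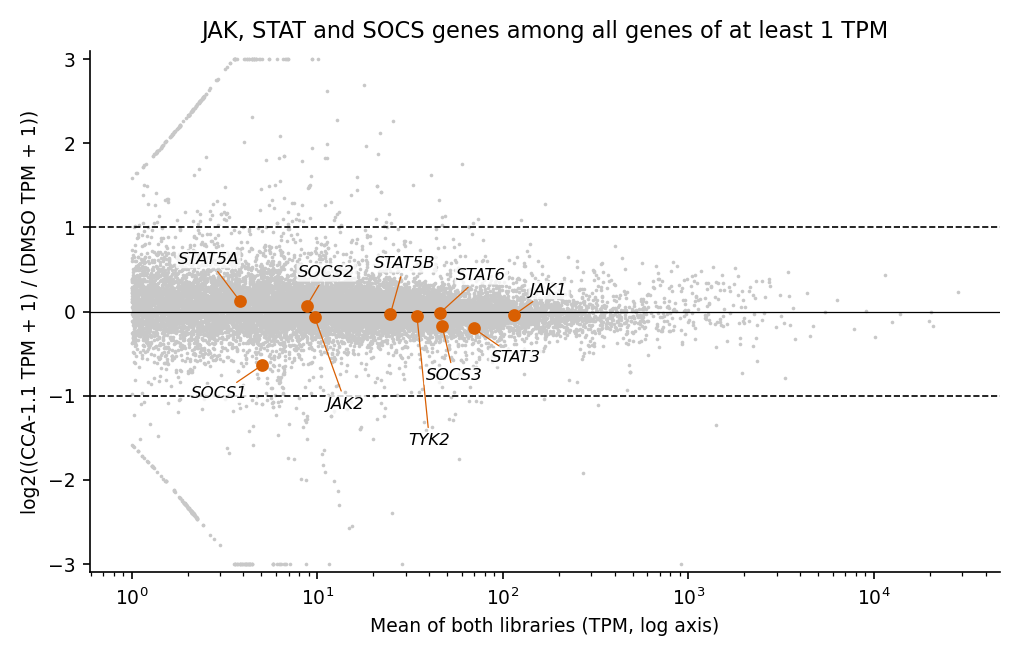
Difference between the libraries on the log2(TPM + 1) scale (vertical axis) against the mean of both libraries in TPM (log axis) for all 15485 expressed genes (grey) and the 10 genes described here (orange); dashed lines mark 2-fold, and differences beyond 3 or -3 are drawn at 3 or -3. SOCS1, at -0.64, lies in the lower part of the grey cloud, with 4.28% of the genes of 1 to 10 TPM below it. The other 9 lie between -0.20 and 0.13.

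The other genes of the pathway were taken from lists by role. Among the IL-6 family cytokines, 6 of the 7 with a mean of at least 1 TPM were lower with CCA-1.1, and the median difference was -0.18. This median was -0.31 with no pseudocount, -0.065 over those averaging 10 TPM or more and -0.054 over all 10 of the list. IL6 itself was at 11.1 TPM with DMSO and 4.92 TPM with CCA-1.1, a difference of -1.03, and past 2-fold lower lay 1.67% of all expressed genes. IL11 was at 35.1 and 25.9 TPM (-0.42) and EBI3, a subunit of IL-27, at 8.65 and 6.87 TPM (-0.29). The most abundant ligand, CLCF1, was at 44.9 and 42.8 TPM.

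Of 17 cytokine receptors that signal through JAKs, 13 were lower and 4 higher in the CCA-1.1 library, with a median of -0.11 (-0.043 over all 25 of the list), and 2 were lower by more than 0.32, against 6.88% of all genes. IL7R, the interleukin-7 receptor chain, was at 3.98 TPM with DMSO and 1.5 TPM with CCA-1.1, a difference of -0.99. Without the pseudocount its difference was -1.41 and that of IL6 -1.18, so both were then past 2-fold. IL20RB was at 7.97 and 5.50 TPM (-0.46) and IL13RA1 at 117.5 and 101.2 TPM (-0.21). IL6ST, which encodes gp130, the shared chain of the IL-6 family receptors, was the most abundant at 144.3 and 132.6 TPM. The remaining 8 receptors of the list were below 1 TPM, with IL2RG and CSF2RB listed at 0 in both libraries.

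The other members of the JAK, STAT and SOCS families lay in the same narrow range. Of 8 with a mean of at least 1 TPM, 6 were lower and 2 higher, and none passed 0.32. The highest difference was 0.15 for SOCS4 (24.7 and 27.6 TPM). CISH, a feedback gene of STAT5, was at 3.18 and 2.82 TPM, and JAK3, the kinase of lymphoid cells, at 0.51 TPM in both libraries. Among phosphatases, PIAS proteins and adaptors, 5 of 12 were higher and 7 lower around a median of -0.0065. STAM2, an adaptor of endosomal sorting, was at 17.2 TPM with DMSO and 23.0 TPM with CCA-1.1 (0.40), SH2B3, an adaptor that restrains JAK2, at 47.8 and 39.8 TPM (-0.26), and PIAS2 at 16.4 and 18.8 TPM (0.19). PTPN11, the phosphatase SHP2, was the most abundant at 141.6 and 130.3 TPM.

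Known STAT3 target genes did not share a direction. Of 16 with a mean of at least 1 TPM, 11 were lower and 5 higher, with a median of -0.13 that was -0.051 over those averaging 10 TPM or more, and 4 were lower and 1 higher by more than 0.32, against 6.88% and 11.5% of all genes. MYC was at 21.1 TPM with DMSO and 31.6 TPM with CCA-1.1 (0.57). CEBPD, a factor of the acute phase response, was at 75.6 and 50.8 TPM (-0.56), BIRC5, the gene of survivin, at 2.15 and 1.14 TPM (-0.56), and TIMP1, an inhibitor of metalloproteinases and the most abundant of the list, at 2540 and 1917 TPM (-0.41). These genes answer to other factors as well. Of 6 STAT5 target genes 3 were higher and 3 lower, none past 0.32. CCND1 was at 70.7 and 61.9 TPM (-0.19), PIM2 at 31.4 and 27.9 TPM (-0.16), and BCL6, a gene that STAT5 represses, at 102.1 and 105.0 TPM. Of 5 STAT6 target genes 3 were higher and 2 lower, also none past 0.32, with CCL26 at 24.6 and 20.2 TPM (-0.27), TGM2 at 13.6 and 11.6 TPM (-0.21) and SERPINB4 at 2.99 and 3.60 TPM (0.21).

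**Figure D4:**
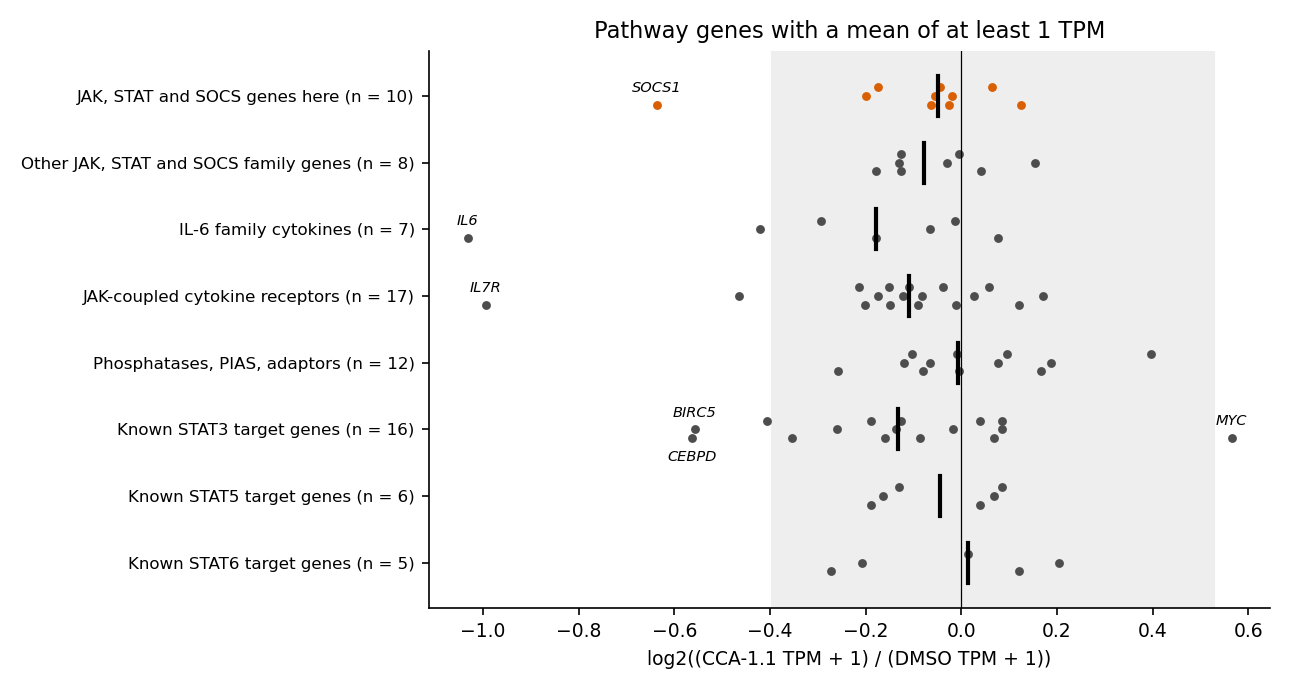
Differences on the log2(TPM + 1) scale (horizontal axis) of single expressed genes, by list; points are genes, shifted vertically to separate them, black bars are list medians, and the grey band spans the 5th to 95th percentile of all 15485 genes (-0.40 to 0.53). IL6 (-1.03) and IL7R (-0.99) lie farthest to the left, SOCS1 (-0.64) is the only one of the 10 genes outside the band, and MYC (0.57) lies to its right.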

How the data were processed

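RNA was sequenced from U87 cells after 72 h with DMSO or CCA-1.1, with 1 library per condition. mRNA libraries were made with a SMARTer kit and run on an Illumina sequencer. Reads were checked by the authors with FastQC 0.11.9 and MultiQC 1.1, and Kallisto assigned them by pseudo-alignment to GRCh38.p14 transcripts. The deposited values are TPM per transcript with 2 decimals, in columns that sum to 999999 and 1000000. Identifiers were matched to symbols with a RefSeq table of GRCh38.p14 with versions ignored (169966 of 177816), and TPM was summed per gene. A pseudocount of 1 TPM was used. TPM keeps no read depth, so no count model was run. The genes and lists were chosen with earlier results of these data known. All 10 genes were named, with their leading transcript and those past 2-fold; in each list, the 3 largest differences and the most abundant gene were named, and others after their values were seen. Shared 31-base words were counted on both strands in GENCODE v44 transcripts of GRCh37. No gene was named for a pattern like theirs, since 2 libraries give none. A planned comparison of STAT5 protein sequences was not made. The calculation was tested on simulated data. Python 3.11.15, numpy 2.4.6, pandas 2.3.3 and matplotlib 3.10.9 were used.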

Additional observations from a re-analysis of the deposited data

How the results depend on the processing

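No paired analysis was possible because each condition had 1 library, and none could be left out. No gene of the 10 passed 2-fold under any alternative, and of 70 recomputed gene differences 66 moved by less than 0.1 (log2). SOCS1 was at -0.75, -0.77 and -0.77 with pseudocounts of 0.1 and 0.01 TPM and with none, and SOCS2 was at 0.20 with curated transcripts only. The sign of STAT6 alone changed, with protein-coding transcripts only. The number of transcripts past 2-fold depends on the pseudocount: with 0.1 TPM 14 were higher and 14 lower, with 0.01 TPM 19 and 16, and with none, over transcripts above 0 in both libraries, 7 were higher and 6 lower. Of the 10 genes, 5 held such a transcript with 1 TPM, against 19.6% of expressed genes with 2 or more transcripts. With 0.1 or 0.01 TPM 8 held one, and with none 4 did. The share of all genes was not computed at these settings, so the counts of 8 and 4 say nothing particular about the 10 genes. Of the list genes 1 was past 2-fold lower with 1 TPM, against 1.67% of all expressed genes. With smaller pseudocounts or none 2 were (IL6 and IL7R), and the share of all genes was not computed there. These settings were added for the list genes after the values were seen. Of transcripts averaging 1 TPM or more, 0 were higher and 3 lower past 2-fold, against 3.66% and 3.38% of all transcripts with that mean. With curated transcripts only, 2 were higher and 3 lower, and the share of all curated transcripts was not computed. The median of the IL-6 family cytokines was -0.29, -0.31 and -0.31 with pseudocounts of 0.1 and 0.01 TPM and with none, -0.065 with a mean of at least 10 TPM and -0.054 with no minimum. That of the STAT3 targets was -0.051 with a mean of at least 10 TPM. That of the STAT6 targets was -0.24 with a mean of at least 10 TPM, where fewer genes are counted. For the share held by the leading transcript, the change from DMSO to CCA-1.1 was recomputed with curated transcripts only. It moved by less than 5 percentage points. The shares themselves were not compared between these settings. SOCS2, whose leading transcript is a model, gave no value. Median ratio scaling used a factor of 1.006. Without IL6, IL7R, CEBPD and MYC, left out after their values were seen, no list median moved by 0.1 or more. The missing read depth limits every value near 0.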
